A study of Mus musculus with 7 samples.

Results

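Adipogenic transcription factors are the DNA-binding proteins that turn precursor cells into fat cells and keep mature fat cells in that state. The genes described are Pparg, Rxra, Cebpa, Cebpb, Cebpd, Klf15, Ebf1, Ebf2 and Zfp423. They were chosen by name, and each was read from the probe set of the highest mean that the platform annotation pairs with that gene symbol alone. All 9 genes were found, of 19938 genes measured this way, and each had exactly 1 such probe set. The tissue was white fat of the epididymal depot, which lies against the epididymis, from male C57Bl/6J mice aged 17 weeks and fed chow. A group of 4 wild type samples was compared with 3 samples of aP2-XBP1 transgenic mice, which overexpress XBP1, which switches on genes of the unfolded protein response, in fat. The aP2 promoter is that of Fabp4, which is active in adipocytes and is also known to be active in some macrophages. The labels number the samples as replicates and do not say whether each came from its own animal, so the spread behind each p-value is that of these samples and may include technical spread. Each sample was hybridised to 1 Affymetrix array of 1 colour, and precision is limited by how many arrays there are.

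PPARG and CEBPA are the central pair of the program. CEBPB and CEBPD act early in differentiation and switch on Pparg and Cebpa, which then maintain each other's expression and bind, PPARG as a heterodimer with RXRA, at the genes of lipid storage and adipokines. EBF1, EBF2, KLF15 and ZFP423 are further regulators of Pparg or of the commitment of precursors, and EBF2 is best known from brown and beige fat. CEBPB is known to activate Xbp1, and XBP1 has been described as a regulator of Cebpa in adipocyte differentiation, which ties these genes to the transgene.

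Upstream sequences are shown for Cebpa, Klf15 and Pparg, the members with the largest differences described below, so that the letters around their starts can be read beside the values. RefSeq promoter windows (build GRCm38.p6) were matched for 7 of the 9 members by symbol, and Cebpd and Ebf2 were not matched. The first 250 bases of each window, upstream of the annotated start, were searched on both strands for 4 motifs known from genes of the unfolded protein response. GACGTG is the core bound by XBP1, TGACGT a related core bound by bZIP factors, CCACG the part of the ER stress element bound by ATF6 and XBP1, and CCAAT its NF-Y box. GACGTG and TGACGT overlap where TGACGTG occurs, and CGTGG, the other strand of CCACG, overlaps GACGTG where a G follows. Capitals mark the matches, on either strand, in the plus-strand windows chr7:35119043-35119292 (Cebpa), chr6:90462326-90462575 (Klf15), chr6:115360894-115361143 (Pparg, upstream start) and chr6:115421816-115422065 (Pparg, downstream start). Pparg has another annotated start between these, chr6:115362099-115362348, whose window held 1 CCAAT and no CCACG and is not shown.
Cebpa: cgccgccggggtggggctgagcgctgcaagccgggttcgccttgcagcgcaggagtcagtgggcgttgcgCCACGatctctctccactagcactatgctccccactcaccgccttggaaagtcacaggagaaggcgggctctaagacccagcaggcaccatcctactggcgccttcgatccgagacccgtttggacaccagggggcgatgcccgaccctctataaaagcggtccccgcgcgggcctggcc
Klf15: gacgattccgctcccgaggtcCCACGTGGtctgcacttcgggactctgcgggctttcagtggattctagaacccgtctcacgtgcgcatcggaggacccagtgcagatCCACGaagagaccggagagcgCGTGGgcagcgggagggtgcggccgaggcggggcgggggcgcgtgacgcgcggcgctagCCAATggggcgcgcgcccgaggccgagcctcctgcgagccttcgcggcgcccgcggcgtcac
Pparg upstream start: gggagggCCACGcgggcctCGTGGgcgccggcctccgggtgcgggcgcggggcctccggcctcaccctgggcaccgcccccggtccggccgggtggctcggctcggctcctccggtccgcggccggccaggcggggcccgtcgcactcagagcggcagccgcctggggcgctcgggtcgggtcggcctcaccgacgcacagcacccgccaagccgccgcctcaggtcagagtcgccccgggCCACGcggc
Pparg downstream start: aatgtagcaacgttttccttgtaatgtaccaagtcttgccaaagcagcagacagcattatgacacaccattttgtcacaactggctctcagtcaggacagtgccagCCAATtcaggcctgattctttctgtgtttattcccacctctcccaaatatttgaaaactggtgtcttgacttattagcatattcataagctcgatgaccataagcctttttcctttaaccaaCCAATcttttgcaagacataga

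Cebpa held 1 CCACG and no CCAAT, Klf15 held 4 CCACG matches, of which a pair overlaps on opposite strands, and 1 CCAAT, and the upstream Pparg start held 3 CCACG. The downstream Pparg start held 2 CCAAT and no CCACG. Over the 12 windows of the 7 members, CCACG was found in 7, CCAAT in 3, and GACGTG and TGACGT in 0. Of all 32851 windows of this length, 28.3% held CCACG, 33.8% CCAAT, 5.20% GACGTG and 6.47% TGACGT. The members' windows had a median GC content of 65.6%, against 52.4% over all windows. By gene, CCACG was in 7 of 7 members and in 12 of 14 XBP1 target genes that had a window, CCAAT in 2 of 7 and 13 of 14, and GACGTG in 0 of 7 and 3 of 14. A gene counts here if any of its windows holds the motif, so genes with several windows have more chances. The share over all genes was not computed, so these counts by gene have no background of their own. A match describes letters and is not a binding site.

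Some epididymal transcripts were high in wild type replicates 1, 3 and 4, with smooth muscle genes at higher levels, and wild type replicate 2 resembled transgenic fat in both respects. Serpina1f, an epididymal serpin, had values of 10.70, 10.84 and 11.50 in the former 3, of 2.74 in the latter and of 2.83 to 3.73 in the transgenic samples. It is the most extreme of 13 epididymal markers measured, of which 8 had a higher transgenic mean, and the median difference of that list was 0.17. The mean level of the 13 was 4.53, 4.55 and 4.86 in the same 3 wild type libraries and 2.79 in wild type replicate 2. The mean log2 level of 10 mature adipocyte markers was 9.30, 9.55 and 9.85 in the same 3 libraries, 10.13 in the remaining wild type library and between 10.16 and 10.31 with the transgene. In a bulk sample, fewer adipocytes and less RNA per adipocyte cannot be told apart. Each member's difference below is therefore given with all 4 wild type libraries and with wild type replicate 2 as the single control. For lists and other genes the single-control value is given only where stated, and other values use all 4. In the fit with the single control the spread comes from the transgenic libraries alone.

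The wild type mean of Xbp1, the gene carried by the transgene, was 9.03 ± 0.13 (SD, n = 4) and the transgenic mean 9.80 ± 0.17 (SD, n = 3). These means were 1.71-fold apart, and every transgenic library (9.66 to 9.99) lay above every wild type library (8.90 to 9.19). The difference did not pass (limma adjusted p = 0.622, the smallest of all probe sets tested). The Xbp1 probe set does not separate transgene from endogenous gene. Of 18 target genes of XBP1, 18 had a higher transgenic mean and 11 had groups that did not overlap on that side, against 53.6% and 3.38% of all probe sets, and 0 of the 18 passed the limma test. The list's median log2 difference was 0.57, or 0.45 against wild type replicate 2 alone.

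Across the 9 transcription factors, every mean was higher in transgenic fat, with log2 differences (transgenic minus wild type) from 0.09 for Zfp423 to 0.83 for Klf15. A higher transgenic mean was found for 53.6% of the 21789 probe sets tested. The median difference of the members was 0.34, against 0.01 over all probe sets, and it was 0.19 without wild type replicate 1. With limma and Benjamini-Hochberg adjustment over all probe sets, 0 of the 9 passed an adjusted p of 0.05 in either direction, as did 0.00% of all probe sets higher and 0.00% lower. At an unadjusted limma p under 0.05, 4 of the 9 were higher, against 4.82% of all probe sets. The 4 were Cebpd, Klf15, Cebpa and Pparg. For Cebpd and Klf15 every transgenic library lay above every wild type library, an order found for 3.38% of all probe sets. Against wild type replicate 2 alone the members' median difference was 0.03, with 6 of 9 higher, so most of the distance lay between that library and the other 3 wild type libraries.

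**Figure D1:**
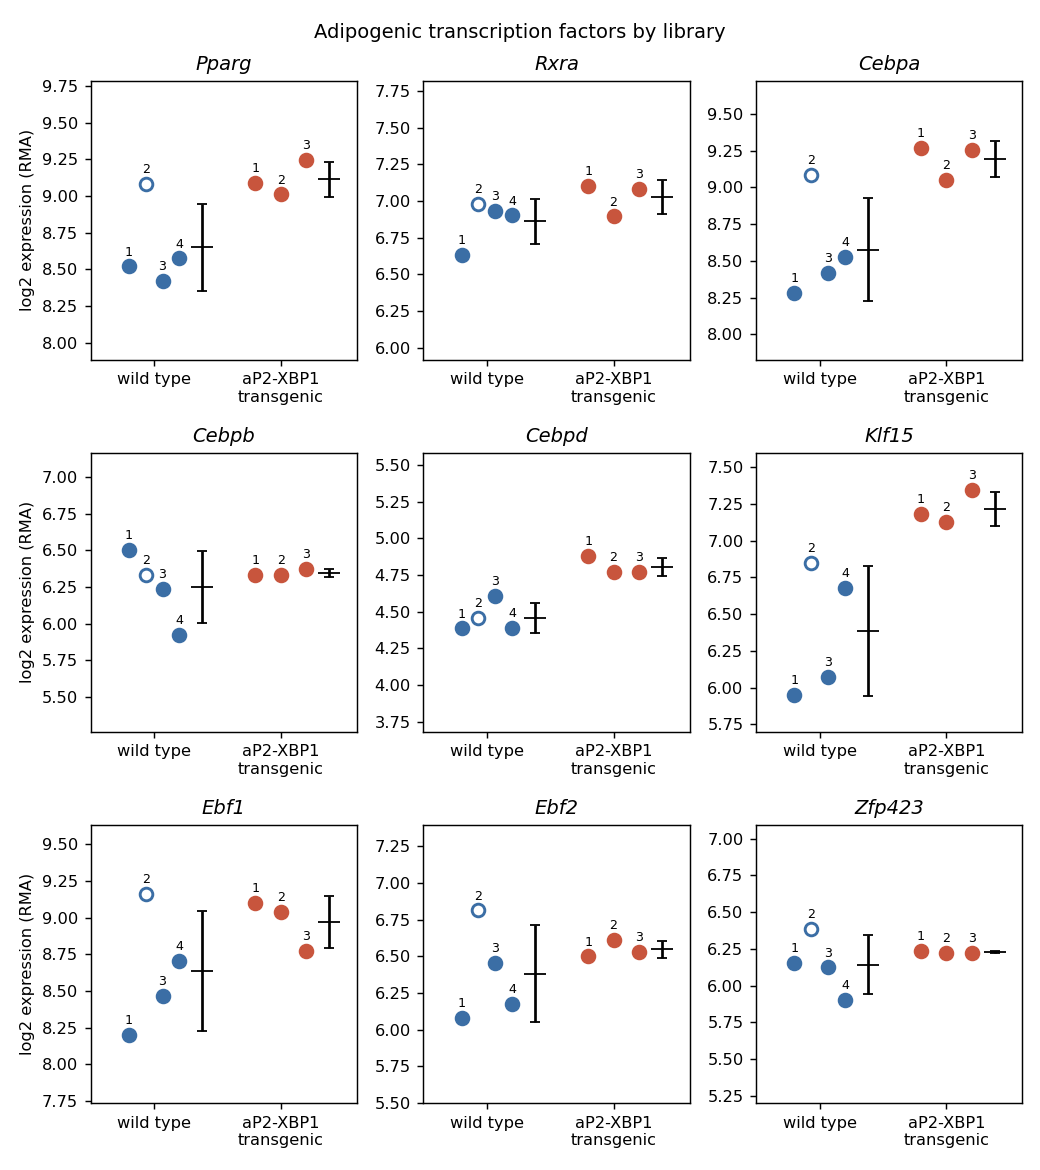
Log2 expression (RMA) of each factor, by library, in wild type (blue) and aP2-XBP1 transgenic (red) fat; numbers are replicates, the open circle is wild type replicate 2, bars are mean ± SD, and each vertical axis spans the same number of log2 units. Klf15 and Cebpd have groups that do not overlap. Wild type replicate 2 lies inside the transgenic range for Pparg, Cebpa and Rxra and at its lower end for Cebpb. It lies above that range for Ebf1, Ebf2 and Zfp423.

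Pparg, the nuclear receptor that drives fat cell formation, read 8.52, 9.08, 8.42 and 8.57 in wild type replicates 1 to 4 and 9.09, 9.01 and 9.25 in transgenic replicates 1 to 3. Wild type replicate 2 lay inside the transgenic range and the other 3 wild type libraries lay below it. The wild type mean was 8.65 ± 0.30 (SD, n = 4) and the transgenic mean 9.11 ± 0.12 (SD, n = 3), 1.38-fold apart (log2 difference 0.46, 95% interval 0.07 to 0.86). The limma adjusted p was 0.622, and an exact two-sided permutation test over the 35 splits gave p = 0.0857, where the smallest possible is 0.0286. Against wild type replicate 2 alone the difference was 0.03. The probe set covers the gene as a whole, so the PPARG isoforms that start at separate promoters are not told apart.

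Rxra, the partner of PPARG on DNA, differed least among libraries of the nuclear receptor pair. It read 6.63, 6.98, 6.93 and 6.90 in wild type and 7.10, 6.89 and 7.08 in transgenic fat. The groups overlapped, with transgenic replicate 2 below 3 of the 4 wild type libraries. The log2 difference was 0.17 (95% interval -0.07 to 0.41; limma adjusted p = 0.67), and 0.05 against wild type replicate 2.

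Cebpa, the C/EBP factor of the mature adipocyte, had the profile nearest to Pparg among the members, with another order of libraries within each group. It read 8.28, 9.08, 8.42 and 8.53 in wild type replicates 1 to 4 and 9.27, 9.05 and 9.26 in transgenic replicates 1 to 3. Again wild type replicate 2 lay inside the transgenic range and the other wild type libraries below it. The wild type mean of 8.58 ± 0.35 (SD, n = 4) and the transgenic mean of 9.19 ± 0.12 (SD, n = 3) were 1.53-fold apart (log2 difference 0.61, 95% interval 0.15 to 1.08; limma adjusted p = 0.622). The exact permutation p was 0.0857, and against wild type replicate 2 the difference was 0.11. Without wild type replicate 2 the difference was 0.78 for Cebpa and 0.61 for Pparg.

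Cebpb, an early inducer of Cebpa and Pparg, showed no such step. It read 6.51, 6.33, 6.24 and 5.92 in wild type and 6.33, 6.33 and 6.38 in transgenic fat. The transgenic libraries lay within the wild type range, between wild type replicates 1 and 3. The log2 difference was 0.10 (95% interval -0.22 to 0.41; limma adjusted p = 0.807). It was 0.01 against wild type replicate 2 alone, and it turned to -0.01 when wild type replicate 4 was left out. The deposited values of wild type replicate 2 and transgenic replicates 1 and 2 were identical for this probe set. Such equality is common in the table, where 33.7% of probe sets have the same value in at least 2 transgenic arrays, so a small SD here does not measure precision.

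Cebpd, the other early C/EBP factor, had the smallest limma p of the 9, at rank 32 of all probe sets. It read 4.39, 4.46, 4.60 and 4.39 in wild type replicates 1 to 4 and 4.88, 4.77 and 4.77 in transgenic replicates 1 to 3. All transgenic libraries lay above all wild type libraries, and wild type replicate 2 lay among the other wild type libraries. The wild type mean was 4.46 ± 0.10 (SD, n = 4) and the transgenic mean 4.81 ± 0.06 (SD, n = 3), 1.27-fold apart (log2 difference 0.35, 95% interval 0.18 to 0.51) with a limma adjusted p of 0.622. The exact two-sided permutation p was 0.0286, the smallest that these group sizes allow. The difference was 0.35 against wild type replicate 2 alone, and it was the only member difference larger than the wild type range, which was 0.22. The probe set is dim, with 49.4% of probe sets reading lower.

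**Figure D2:**
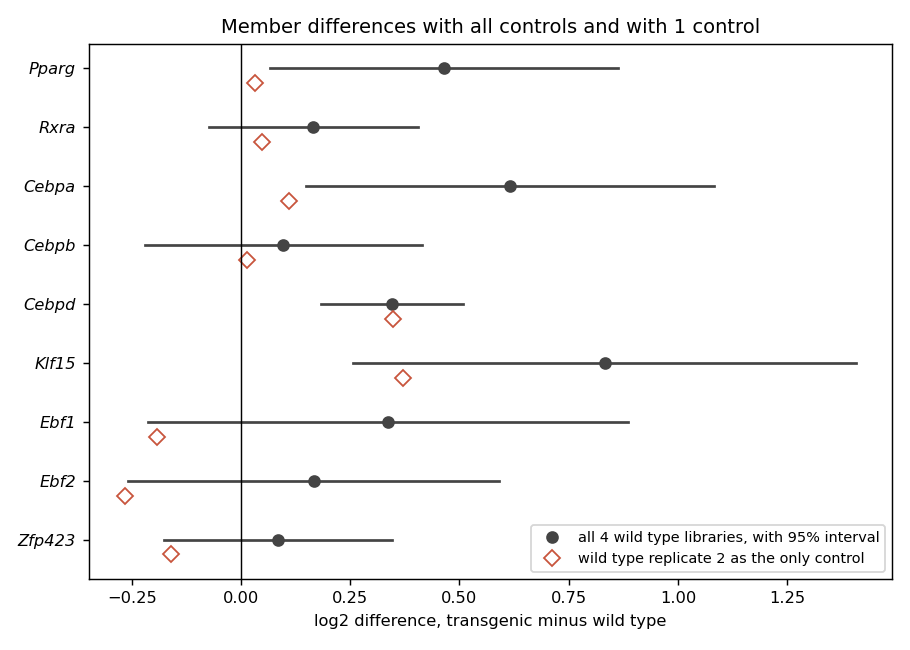
Log2 difference, transgenic minus wild type, of each factor: black points with 95% intervals from limma use all 4 wild type libraries, and open diamonds use wild type replicate 2 as the single control. The Cebpd value is 0.35 in both, Klf15 goes from 0.83 to 0.37, Pparg and Cebpa come close to 0, and Ebf1, Ebf2 and Zfp423 change sign.

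Klf15, a Krüppel-like zinc finger factor that is induced late in adipocyte differentiation and by glucocorticoids, had the largest difference. It read 5.95, 6.85, 6.07 and 6.68 in wild type replicates 1 to 4 and 7.18, 7.13 and 7.35 in transgenic replicates 1 to 3. The groups did not overlap, and the wild type libraries split into replicates 2 and 4, closer to transgenic fat, and replicates 1 and 3, well below. The wild type mean was 6.39 ± 0.44 (SD, n = 4) and the transgenic mean 7.22 ± 0.12 (SD, n = 3), 1.78-fold apart (log2 difference 0.83, 95% interval 0.26 to 1.41; limma adjusted p = 0.622). The exact permutation p was 0.0571. Against wild type replicate 2 alone the difference was 0.37, with all 3 transgenic libraries above it. Klf15 and Cebpd were the 2 of 9 members with that order, against 24.0% of all probe sets. Several list scores divided the same wild type libraries. The macrophage score was 8.67 and 8.62 for replicates 1 and 3 but 7.94 and 7.26 for replicates 2 and 4, with 7.62 to 7.94 in the transgenic group. In the same order, the mature adipocyte score was 9.30 and 9.55 but 10.13 and 9.85, with 10.16 to 10.31 in the transgenic group. Mesothelial scores were 5.94 and 6.49 but 7.19 and 7.14, and lymphocyte scores 4.22 and 4.21 but 3.70 and 3.90. In the transgenic group the mesothelial scores were 6.57 to 7.18, lowest in transgenic replicate 3, where Klf15 was highest of the group. Lymphocyte scores there were 3.72 to 3.88, and 8 of the 11 lymphocyte markers read below 4 in wild type replicate 2. The part of any of these cells in the Klf15 values was not tested.

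Ebf1, an early B-cell factor that acts upstream of Cebpa and Pparg in adipocytes, was highest in wild type replicate 2. It read 8.20, 9.16, 8.47 and 8.70 in wild type and 9.10, 9.04 and 8.77 in transgenic fat. All 3 transgenic libraries thus lay between wild type replicate 4 and wild type replicate 2. The log2 difference was 0.34 (95% interval -0.21 to 0.89; limma adjusted p = 0.689), 0.19 without wild type replicate 1, and -0.19 against wild type replicate 2 alone.

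Ebf2, its relative that marks brown and beige precursors, read 6.08, 6.81, 6.46 and 6.17 in wild type and 6.50, 6.61 and 6.53 in transgenic fat. The transgenic libraries again fell inside the wild type range, below wild type replicate 2. The log2 difference was 0.17 (95% interval -0.26 to 0.59; limma adjusted p = 0.762). It was 0.07 without wild type replicate 1, 0.31 without wild type replicate 2, and -0.27 against wild type replicate 2 alone.

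Zfp423, a zinc finger factor of preadipocyte commitment that favours Pparg expression and restrains the thermogenic program, differed least. It read 6.16, 6.39, 6.12 and 5.90 in wild type and 6.24, 6.22 and 6.22 in transgenic fat. The transgenic values sat together inside the wild type range, and 2 of them were identical in the deposited table. The log2 difference was 0.09 (95% interval -0.18 to 0.35; limma adjusted p = 0.796), 0.01 without wild type replicate 4, 0.17 without wild type replicate 2, and -0.16 against wild type replicate 2. Ebf1, Ebf2 and Zfp423 were the 3 of 9 members with all transgenic libraries below wild type replicate 2, an order of 20.8% of all probe sets.

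The wild type range was larger than the difference of the means for 8 of the 9 members, all but Cebpd, a share close to the 86.9% of all probe sets and so not particular to them. Wild type replicate 2 was the highest wild type library for 7 of 9 members, the exceptions being Cebpb and Cebpd, against 24.0% of all probe sets. Relative to the mean of wild type replicates 1, 3 and 4 it was higher by 0.71 for Ebf1, 0.67 for Cebpa, 0.62 for Klf15, 0.58 for Pparg and Ebf2, 0.33 for Zfp423, 0.16 for Rxra and 0.11 for Cebpb. For Cebpd that distance was -0.003. The range among transgenic libraries was smaller than among wild type libraries for 9 of 9 members and for 70.3% of all probe sets, with groups of 3 and 4.

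**Figure D3:**
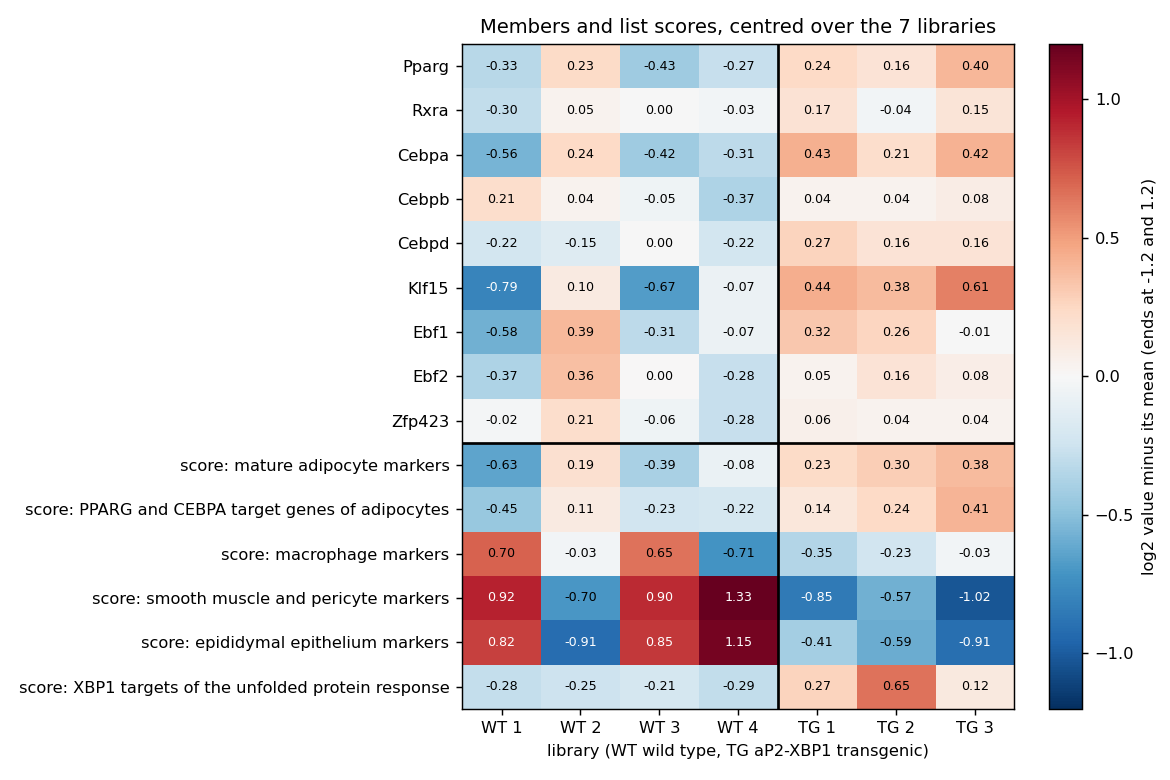
Log2 values of the 9 factors (top) and mean log2 scores of 6 gene lists (bottom), each minus its mean over the 7 libraries; WT is wild type, TG is transgenic, red is above and blue below the mean. Pparg, Cebpa and the adipocyte scores share a pattern with WT 2 beside the TG libraries, whereas the score of XBP1 targets places WT 2 with the other wild type libraries.

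Likeness of profiles was measured as the root mean square difference of 2 log2 profiles over the 7 libraries, each centred on its own mean, so that 0 is an identical pattern. No correlation is given, because the libraries fall into clusters. Among members the nearest pair was Pparg and Cebpa (0.12), followed by Cebpb and Zfp423 (0.12), which both varied little. Cebpa and Klf15 were 0.19 apart. Among 9674 other named genes brighter than the median, the nearest to Cebpa were the homeobox gene Hoxc8 (0.05), the hexokinase Hk2 (0.06) and Fitm2, a lipid droplet protein (0.08). The nearest to Pparg were Emc9, Papss2, a sulfate donor synthase, and the kinase Mknk2, at 0.07, 0.08 and 0.08. The nearest to Klf15 were Hibch, an enzyme of valine breakdown (0.10), the thyrotropin receptor Tshr (0.11) and Gpam, the first enzyme of glycerolipid synthesis (0.11).

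Relatives of the members had small differences. Of 8 such genes (Cebpe, Cebpg, Ppara, Ppard, Rxrb, Rxrg, Ebf3 and Ebf4), 7 had a higher transgenic mean, 0 passed the limma test and 0 had groups that did not overlap. The median difference of the list was 0.10, and 0.06 without transgenic replicate 2. Ebf4 read 3.41 in every library, and both Ebf4 and Rxrg read below 4 on the log2 scale in wild type replicate 2. Ppard, the widely expressed PPAR, differed by 0.13 and Cebpg by 0.17, and neither passed (limma adjusted p = 0.622 for both).

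Other factors that favour adipogenesis lay on both sides of 0. Among 19 measured genes the transgenic mean was higher for 15 and lower for 4, against 53.6% and 46.4% of all probe sets, and 0 passed the limma test. The median difference was 0.15, 0.08 without wild type replicate 1, and -0.07 against wild type replicate 2 alone. Groups did not overlap for 3 genes on the higher side and for 1 on the lower side, against 3.38% and 2.44% of all probe sets. Srebf1, the regulator of lipogenesis, read 7.63, 8.15, 7.62 and 7.99 in wild type and 8.26, 8.43 and 8.58 in transgenic fat. Its difference was 0.58 (limma adjusted p = 0.622), and 0.28 against wild type replicate 2 alone. Egr2, also known as Krox20, an early inducer of Cebpb, lay on the lower side, at 5.57, 5.08, 5.13 and 4.68 in wild type and 4.42, 3.94 and 4.52 in transgenic fat. Its difference of -0.82 (SE 0.23; limma adjusted p = 0.622) was -0.78 against wild type replicate 2 alone, so that library stood with the other wild type libraries for this gene. Mlxipl, the carbohydrate-responsive factor ChREBP, had the highest difference of the list (0.65) and was chosen after its values were seen, as was Nfia (0.48). The single-control differences were 0.27 for Mlxipl and 0.11 for Nfia.

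Coregulators of PPARG were spread around 0. Of 14 measured, 6 were higher and 8 lower in mean, against 53.6% and 46.4% of all probe sets. None passed the limma test, and the median difference was -0.01. Groups did not overlap for 1 gene on the higher side and for 2 on the lower side, against 3.38% and 2.44% of all probe sets. Ep300, the histone acetyltransferase p300, read 6.76, 6.76, 6.75 and 6.57 in wild type and 6.40, 6.46 and 6.52 in transgenic fat. These groups did not overlap, with a difference of -0.25 (SE 0.06; limma adjusted p = 0.622), and -0.30 against wild type replicate 2. Hdac3, a deacetylase of corepressor complexes, differed by 0.21 without overlap, and 0.11 against wild type replicate 2.

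Repressors of adipogenesis had 11 higher and 13 lower means among 24 genes, against 53.6% and 46.4% of all probe sets. None passed the limma test, and the median difference was -0.01. Groups did not overlap for 0 genes on the higher side and for 1 on the lower side, against 3.38% and 2.44% of all probe sets. At an unadjusted limma p under 0.05, 5 were lower, against 3.12% of all probe sets. Nr2f2, the nuclear receptor COUP-TFII, read 7.73, 7.51, 7.78 and 8.04 in wild type and 7.43, 7.29 and 6.96 in transgenic fat, which did not overlap (difference -0.54, SE 0.15; limma adjusted p = 0.622). Gata2, a zinc finger factor of preadipocytes, read 5.74, 4.92, 5.64 and 5.84 in wild type and 5.07, 4.66 and 4.28 in transgenic fat. Gata3, chosen after its values were seen, had the lowest difference, -2.28, and was high in the libraries with epididymal transcripts (6.73, 6.07 and 7.42) and 3.53 in wild type replicate 2. Against wild type replicate 2 alone the differences were -0.29 for Nr2f2, -0.25 for Gata2 and 0.12 for Gata3.

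**Figure D4:**
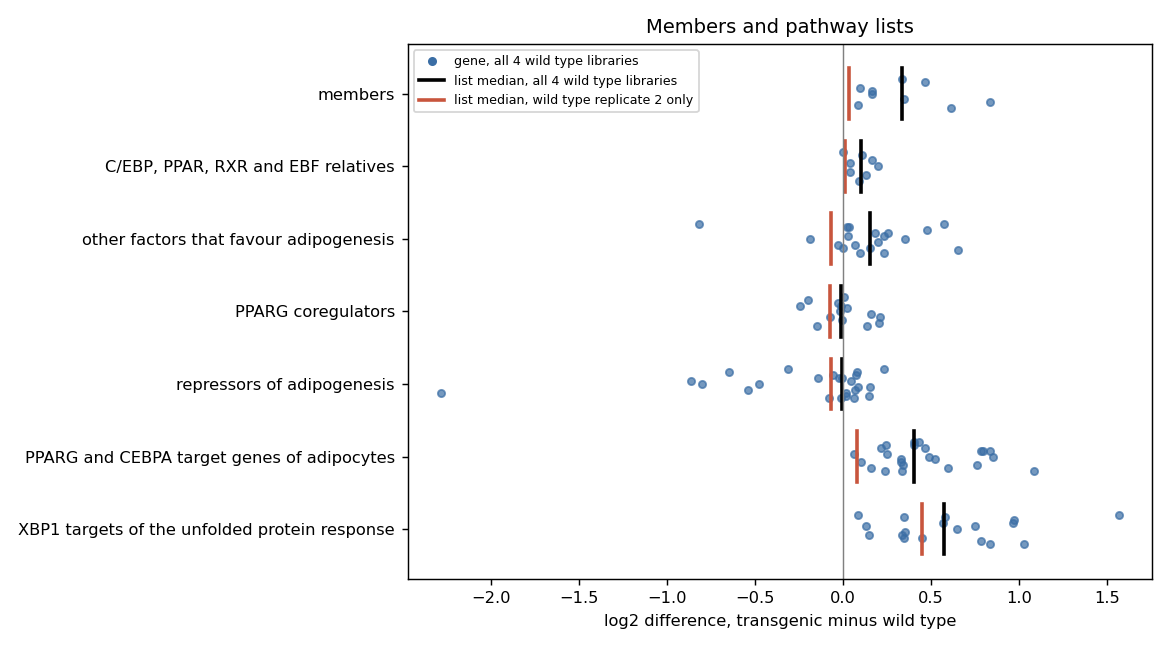
Log2 differences, transgenic minus wild type, of single genes (blue points) in the 9 members and 6 lists of related genes, with list medians for all 4 wild type libraries (black) and for wild type replicate 2 as the single control (red). The median of the members goes from 0.34 to 0.03 and that of the PPARG and CEBPA targets from 0.40 to 0.08, while that of the XBP1 targets goes from 0.57 to 0.45.

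Target genes of PPARG and CEBPA had higher transgenic means, as did the pair. All 24 measured had a higher transgenic mean and 7 had groups that did not overlap, against 53.6% and 3.38% of all probe sets, 0 passed the limma test, and the median difference was 0.40. Their score read 9.76, 10.32, 9.99 and 10.00 in wild type and 10.36, 10.45 and 10.63 in transgenic fat. Hcar1, the lactate receptor of adipocytes, differed by 0.79 (SE 0.10; limma adjusted p = 0.622) and by 0.70 against wild type replicate 2 alone. Dgat1, an enzyme of the last step of triglyceride synthesis, differed by 0.85 and by 0.42 in the same order. Against that library the list's median was 0.08, with 18 of 24 genes higher. Of the 24, 6 also stand among the mature adipocyte markers, so the lists are not separate.

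Markers of other cells were read beside the members. Mature adipocyte markers were higher in mean for 10 of 10, with a median difference of 0.45, from Trarg1 (0.13) to Pnpla3 (1.15). When all values were taken relative to the adipocyte score of the same library, a choice made after the data were seen, the differences were 0.30 for Klf15, 0.09 for Cebpa, -0.06 for Pparg and -0.18 for Cebpd, where the median of all probe sets was -0.52. Smooth muscle and pericyte markers were lower for 11 of 12 (median difference -1.35, from Cnn1 at -3.61 to Rgs5 at 0.34), with scores of 6.72 to 8.74 in wild type and 6.39 to 6.84 in transgenic fat. Epididymal markers were lower for 5 of 13 (median difference 0.17, and -0.02 without transgenic replicate 1), from Serpina1f (-5.79) to Adam7 (0.44), with scores of 2.79 to 4.86 and 2.80 to 3.30. In wild type replicate 2, 12 of those 13 read below 4 on the log2 scale. Against that library alone, 11 of the 13 had a higher transgenic mean, with a median difference of 0.28.

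Macrophage markers were lower for 14 of 15 (median difference -0.22, from Itgax at -1.33 to Cd163 at 0.89), with scores of 7.26 to 8.67 in wild type and 7.62 to 7.94 in transgenic fat. That median was -0.08 and -0.05 without wild type replicates 1 and 3, and -0.50 without wild type replicate 4. Against wild type replicate 2 alone it was -0.11, with 7 of 15 higher. Progenitor and fibroblast markers, the cells in which ZFP423 and EBF2 are best known, were lower for 9 of 15 (median difference -0.29, from Col1a1 at -0.72 to Cd55 at 0.28), with scores of 8.23 to 8.87 in wild type and up to 8.57 in transgenic fat. Their median was -0.14 without wild type replicate 1 and -0.46 without wild type replicate 4. With wild type replicate 2 as the single control it was -0.26, and 1 of the 15 was higher. For 11 of the 15, all transgenic libraries lay below that library, an order of 20.8% of all probe sets. Endothelial markers were higher for 12 of 12 (median difference 0.16, from Eng at 0.04 to Kdr at 0.37), with scores of 7.33 to 7.66 and 7.60 to 7.78. Against wild type replicate 2 alone 7 of 12 were higher, with a median difference of 0.035. Mesothelial markers were higher for 6 of 9 (median difference 0.29, from Krt19 at -0.79 to Upk3b at 0.82), with scores of 5.94 to 7.19 and 6.57 to 7.18. Their median was 0.08, 0.62 and 0.13 without wild type replicates 1, 2 and 3, and 0.10 and 0.49 without transgenic replicates 1 and 2. Lymphocyte markers were higher for 6 of 11 (median difference 0.03, from Gata3 at -2.28 to Ms4a1 at 0.52), with scores of 3.70 to 4.22 and 3.72 to 3.88. Brown and beige markers, the program that EBF2 serves, were higher for 9 of 10 (median difference 0.09, from Tmem26 at -0.19 to Cox8b at 1.18), with scores of 3.35 to 3.48 and 3.48 to 3.78. In wild type replicate 2, 6 of those 10 and 8 of the 11 lymphocyte markers read below 4 on the log2 scale. A higher transgenic mean was found for 53.6% of all probe sets. The part of any of these cells in the members' values was not tested.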

How the data were processed

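RNA of 7 fat samples was measured on Affymetrix arrays. The authors deposited log2 values of expression. Per the submitters' processing notes the tool was RMA (background correction, quantile normalization between arrays, summary of probes). No version of RMA or filter is named there. RMA hides a shift of all genes. Of 35556 probe sets, 21789 had 1 gene symbol in the platform annotation and were tested, 1621 had several and 12146 had none or were not listed. Labels tied all 7 columns to samples. Array medians ran from 3.99 to 4.04, and 0 pairs of arrays were identical. The medians were 3.99 to 4.01 in transgenic and 4.03 to 4.04 in wild type arrays, without overlap. A shift of arrays to a common median moved the median difference of all probe sets from 0.01 to 0.05. It moved that of coregulators from -0.01 to 0.03 and that of repressors from -0.01 to 0.03.

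Groups followed the genotype in the labels. Differences were fitted with limma 3.58.1 (lmFit, eBayes, two-sided) in R 4.3.3, genotype as the only term, and adjusted by Benjamini-Hochberg over all 21789 probe sets at 0.05. Folds are 2 raised to the log2 difference. A list score is the mean, per library, of the log2 values of its measured genes. Lists are described by counts and medians, with no test. Beside the 9 members, the text names Xbp1, the 2 genes of smallest p of each pathway list, the ends of each marker list and the 3 genes nearest to Pparg, Cebpa and Klf15 in profile. Other genes are said to be chosen after their values were seen. Members, lists and alternatives were chosen with earlier results of these data known. The fit was tested on simulated data. Alternatives covered normalization, filters, weights, priors, a replicate block, and leaving out libraries. Tables and figures were made with Python 3.11.15, pandas 2.3.3 and matplotlib 3.10.9.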

Additional observations from a re-analysis of the deposited data

Results flagged for a closer look

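The mean log2 level of the 13 measured epididymal epithelium markers set 1 wild type library apart from the others. It was 2.79 in wild type replicate 2, against 4.53, 4.55 and 4.86 in wild type replicates 1, 3 and 4, and the gap of that library to its nearest neighbour was 0.842 of the group's whole range, above Dixon's 95% critical value for 4 samples. Chance gives such a gap in about 1 of 20 groups picked without sight of the data, and 27 sets of values were examined. The epididymal list was chosen with earlier results of these data known, so that rate does not apply to it. None of the 9 transcription factors had such a gap in wild type fat, where the widest were 0.778 for Rxra and 0.768 for Pparg.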

How the results depend on the processing

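With 7 arrays, 0 of the 9 differences passed an adjusted p of 0.05 in any fit that was run. Under a repeat of quantile normalization, a shift of arrays to a common median, the filter on dim probe sets, all rows tested, 1 probe set per gene, array weights, and an intensity trend with a robust prior, all 9 kept their sign. When wild type replicate 2 was the single control, Ebf1 turned to -0.19, Ebf2 to -0.27 and Zfp423 to -0.16, and the median difference went to 0.0325 for the members, 0.013 for their relatives, -0.0692 for other factors that favour adipogenesis, 0.0782 for PPARG and CEBPA targets, 0.10 for mature adipocyte markers, -0.0569 for smooth muscle and -0.36 for mesothelial markers. Relative to the adipocyte score, which was added after seeing the data, Pparg turned to -0.0639, Cebpb to -0.43, Cebpd to -0.18, Rxra to -0.36, Ebf1 to -0.19, Ebf2 to -0.36 and Zfp423 to -0.44, while the median of all probe sets was -0.52 and limma called 14 probe sets higher and 1302 lower. Without the dimmest probe sets (25% of them) the epididymal median turned from 0.17 to -1.78, as fewer of its genes were left.

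Leaving out each library in turn gave differences of 0.39 to 0.61 for Pparg, 0.09 to 0.23 for Rxra, 0.52 to 0.78 for Cebpa, -0.0116 to 0.18 for Cebpb, 0.31 to 0.39 for Cebpd, 0.69 to 0.99 for Klf15, 0.19 to 0.51 for Ebf1, 0.07 to 0.31 for Ebf2 and 0.01 to 0.17 for Zfp423. List medians ranged from 0.19 to 0.36 for the members, 0.0618 to 0.13 for their relatives, 0.08 to 0.19 for other factors, -0.0494 to 0.0359 for coregulators, -0.0522 to 0.019 for repressors, 0.29 to 0.54 for PPARG and CEBPA targets, 0.50 to 0.63 for XBP1 targets, 0.32 to 0.58 for adipocyte, -1.74 to -1.14 for smooth muscle, -0.50 to -0.0546 for macrophage, -0.46 to -0.14 for progenitor, 0.0823 to 0.62 for mesothelial, 0.14 to 0.20 for endothelial, -0.0179 to 0.28 for epididymal, -0.0529 to 0.0838 for lymphocyte and 0.04 to 0.12 for brown and beige markers. Leaving out libraries gave 0 to 7 probe sets called higher and 0 to 84 called lower, all of the calls without wild type replicate 2. The labels give both genotypes replicate numbers, and deviations of same-numbered samples from their group means correlated at -0.14, -0.09 and 0.06. With so few pairs, these correlations cannot tell whether the numbers pair the samples. With the replicate block limma called 0 probe sets, as without it, and Cebpb turned to -0.0116. No member has another probe set of its own to compare.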
